A study of Arabidopsis thaliana with 48 samples.

Results

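The genes described here are 38 Arabidopsis thaliana genes of the cell cycle and of DNA replication, out of 33602 targets measured, 1 target per locus. They were taken by locus identifier: 7 A-type cyclins, 8 B-type cyclins, 9 D-type cyclins, 5 cyclin-dependent kinases, the cytokinesis syntaxin KNOLLE, the 6 subunits MCM2 to MCM7 of the replicative helicase, and the sliding clamps PCNA1 and PCNA2. They were measured in 48 RNA-seq libraries of seedlings of the accession Col-0 and of lines carrying T-DNA insertions in transcription factor genes of the EIN3-like family. The eil1 line is SALK_042113, with the insertion in AT2G27050. The eil3 line is SALK_089129, with the insertion in AT1G73730, the gene also called SLIM1. The eil3 eil1 line is the double mutant. Seedlings grew for 18 days at 22 °C under 16 h of light and 8 h of dark, at 100 µmol photons, on agarose plates with a modified Long Ashton nutrient medium. The +S medium held 0.75 mM magnesium sulfate. The -S medium held 0.015 mM magnesium sulfate and 0.75 mM magnesium chloride. Shoots (called leaves in the protocol) and roots were sampled, so that 4 genotypes, 2 sulfate levels and 2 organs gave 16 groups of 3 libraries, which the labels call biological replicates. Total RNA went into stranded poly(A) libraries.

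In plants the cell cycle is driven by cyclin-dependent kinases, which act only when bound to a cyclin. D-type cyclins link growth signals, nutrients included, to entry into DNA synthesis, which requires release of E2F transcription factors from the retinoblastoma-related protein. A-type cyclins act mainly in DNA synthesis and on the way into mitosis, and B-type cyclins act at mitosis. The MCM helicase unwinds DNA at the replication fork, and PCNA is the ring that holds DNA polymerase on its template. In seedlings these genes are used chiefly in meristems, young leaves and lateral root primordia. In whole organs, fewer dividing cells and less RNA per cell cannot be told apart.

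Deposited estimated counts summed to between 27029088 and 37809216 per shoot library and to between 26615772 and 38269946 per root library. Levels of a gene across samples are given as CPM, the share of the library's counts with edgeR's TMM scaling within an organ. Levels between genes, and sums over MCM, PCNA and B-type cyclin genes, are given as TPM. TPM is a share of transcripts that divides each count by the effective length of its target. A response is the log2 difference of -S against +S, with an approximate SE, and a call is an adjusted p below 0.05 in edgeR's quasi-likelihood test over all loci tested in that organ. The targeted genes did not follow every label. In the eil1-labelled libraries EIL1 fell in -S roots alone, by 0.38 on the log2 scale (adjusted p = 0.0406). In the eil3-labelled libraries EIL3 fell in roots, by 0.57 at +S and 0.59 at -S (adjusted p = 0.0039 and 0.00069), and the shoot differences of 0.021 and -0.20 were not called. In the eil3 eil1-labelled libraries EIL1 fell by 1.16 and 1.96 in shoots and by 1.70 and 1.52 in roots, while EIL3 rose in shoots by 0.81 at +S and 0.45 at -S and was not called in roots (-0.12 and -0.069, adjusted p = 0.725 and 0.736). Groups are therefore named by their labels throughout, and the double mutant below is likewise a name for the eil3 eil1 label. The summed level of 8 green tissue markers was 50139 to 61248 CPM in Col-0 +S shoots and 356 to 1597 CPM in roots, and that of 7 root markers was 7798 to 11319.7 CPM in roots and 402 to 715 CPM in shoots, so each organ carried its own markers.

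Stretches of promoter are shown for helicase and mitotic members, the roles in which 3 MCM genes rose and 7 B-type cyclins and KNOLLE fell at low sulfate in eil3 eil1-labelled shoots. Those shown were picked among promoters with a match. They include MCM3 and MCM6, whose responses in those shoots were not called. Promoters were the 250 bases before and 50 bases after the annotated start of each gene in the RefSeq annotation of TAIR10.1, in which all 38 members were found. Both strands were searched for 4 words of the E2F type, TTTCCCGC, TTTCGCGC, TTTGCCGC and TTTGGCGC, and for the core of the mitosis-specific activator (MSA) element, AACGG. An E2F word was present in 5 of 6 MCM promoters (83.3%), against 1.76% of the promoters of 27444 protein-coding genes. It was in 0 of 7 A-type and 0 of 8 B-type cyclin promoters, 1 of 9 D-type cyclin promoters, 0 of 5 kinase promoters and neither PCNA promoter. Of the 22 promoters of further replication genes 8 held it (36.4%). In the lines that follow the matched word is in capitals, with up to 15 bases on each side, 5′ to 3′ on the strand of the gene, and a word on the other strand reads as its reverse complement. The stretches lie at chr1:16970185-16970213 (plus strand) for MCM2, and on the minus strand at chr5:18773854-18773891 for MCM3, chr2:7130742-7130779 for MCM4, chr2:3527501-3527534 for MCM5 and chr5:18010691-18010728 for MCM6.
MCM2: aaattggcgccaataTTTCCCGCctaatc
MCM3: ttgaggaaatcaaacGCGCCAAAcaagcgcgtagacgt
MCM4: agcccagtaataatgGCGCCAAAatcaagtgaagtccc
MCM5: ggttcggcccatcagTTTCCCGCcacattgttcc
MCM6: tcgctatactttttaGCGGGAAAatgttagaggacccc

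The MSA core was found in 7 of 8 B-type cyclin promoters (87.5%) and in that of KNOLLE, against 24.7% of all protein-coding genes. It was also in 3 of 7 A-type cyclin promoters (42.9%), 2 of 6 MCM promoters (33.3%), 1 of 9 D-type cyclin and 1 of 5 kinase promoters, and neither PCNA promoter. Among the further lists of cycle genes it was in 11 of 13 histone H3.1 and H4 promoters (84.6%) and 9 of 11 of mitosis and cytokinesis (81.8%). No member promoter had an E2F word that overlapped an MSA core. The stretches shown run from 15 bases before the first match kept to at most 15 bases after the last, without bases past the start of the gene, and hold several matches in each cyclin promoter. For CYCB1;2 a match at position -143 from the start is not included. They are on the minus strand at chr5:1861704-1861787 for the first cyclin listed, chr3:3627274-3627352 for the second, chr1:7137856-7137957 for the fourth and chr1:2711001-2711027 for KNOLLE, and on the plus strand at chr4:16901409-16901513 for the third.
CYCB1;2: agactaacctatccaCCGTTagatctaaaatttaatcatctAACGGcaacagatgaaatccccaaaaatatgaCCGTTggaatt
CYCB1;3: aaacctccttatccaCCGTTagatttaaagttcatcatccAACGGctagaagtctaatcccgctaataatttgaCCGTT
CYCB2;2: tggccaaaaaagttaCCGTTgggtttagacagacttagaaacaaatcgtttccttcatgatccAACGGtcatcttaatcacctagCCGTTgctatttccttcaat
CYCB2;3: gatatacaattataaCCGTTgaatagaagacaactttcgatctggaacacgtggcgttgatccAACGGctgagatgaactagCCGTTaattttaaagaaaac
KNOLLE: agacaaatggacgacAACGGatacatc
A match is a description of the letters in these windows and not evidence of binding. With only the bases before the start counted, the E2F share was 83.3% for MCM and 1.41% for all genes, and the MSA share was 62.5% for B-type cyclins and 20.6% for all genes.

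In Col-0 shoots most of these genes were lower at low sulfate. Of the 37 members tested, 26 fell and 0 rose, where 34.9% of all 21697 loci were called, 17.9% lower and 16.9% higher. The median response of the members was -0.56 on the log2 scale, against 0 for all loci. CYCD7;1 (AT5G02110), a D-type cyclin of the stomatal lineage, was not tested, since it reached at most 0.170 CPM in shoots and was at 0 in all 24 root libraries. In eil1-labelled shoots 21 members fell and 0 rose (27.3% of loci called, 12.9% lower), with a median of -0.48. In eil3-labelled shoots 17 fell and 1 rose (34.6% of loci called, 16.6% lower and 18.1% higher), with a median of -0.40. In eil3 eil1-labelled shoots 16 fell and 5 rose (60.8% of loci called, 28.3% lower and 32.5% higher), with a median of -0.22. Averaged over the 4 genotypes 28 fell and 1 rose, where 65% of loci were called, 30.2% lower and 34.8% higher. With total-count scaling, which moved the median of all loci by 0.12 in Col-0 and 0.25 in eil3-labelled shoots, the split was 21 lower and 0 higher in Col-0, 7 lower and 3 higher in eil3-labelled and 14 lower and 9 higher in eil3 eil1-labelled shoots.

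**Figure D1:**
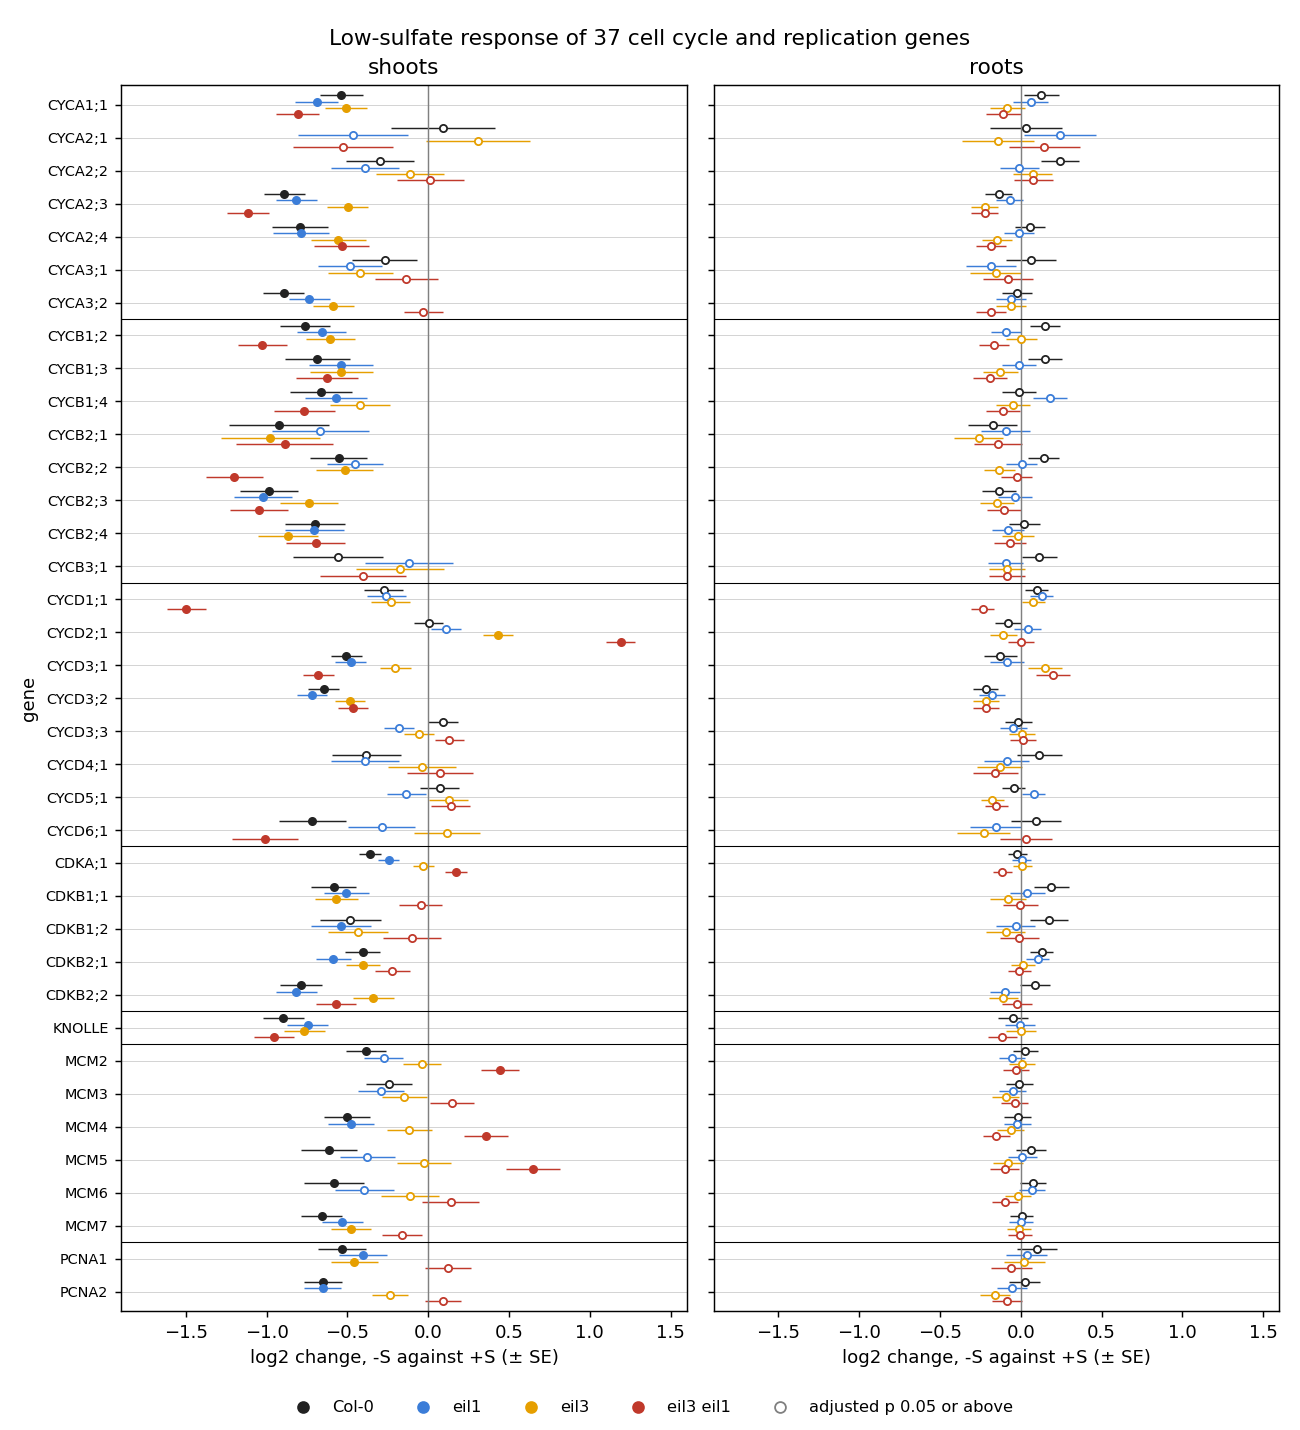
Low-sulfate response (log2 of -S against +S) of the 37 members tested, in shoots and in roots, with 1 symbol per genotype label, and open symbols have an adjusted p of 0.05 or more. Shoot responses lie mostly below 0, with the MCM and PCNA members of eil3 eil1-labelled shoots above 0 except MCM7, and root responses lie close to 0.

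Among the A-type cyclins, 4 of 7 fell in Col-0, 4 in eil1-labelled, 4 in eil3-labelled and 3 in eil3 eil1-labelled shoots, and 0 rose in any. The shares of all loci called lower were 17.9%, 12.9%, 16.6% and 28.3% in that order. CYCA2;3 (AT1G15570), a cyclin that restrains endoreduplication, stood at 15.5, 17.5 and 18.3 CPM at +S and 9.13, 8.85 and 9.67 at -S in Col-0 shoots, against 16.4, 15.8 and 17.3 at +S and 7.62, 8.08 and 7.13 at -S in eil3 eil1-labelled shoots. The -S libraries lay below the +S libraries in both lines, without overlap. Its response was -0.89 ± 0.13 (adjusted p = 2.13e-05) in Col-0, -0.82 ± 0.13 (adjusted p = 8.60e-05) in eil1-labelled, -0.50 ± 0.13 (adjusted p = 0.0048) in eil3-labelled and -1.12 ± 0.13 (adjusted p = 2.56e-07) in eil3 eil1-labelled shoots. CYCA3;2 (AT1G47210), a member of the A3 group, which is tied to DNA synthesis, behaved otherwise in the double mutant. It stood at 11.6, 12.7 and 13.5 CPM at +S and 6.77, 7.40 and 6.19 at -S in Col-0 shoots, against 13.5, 12.04 and 12.3 at +S and 11.5, 12.02 and 13.6 at -S in eil3 eil1-labelled shoots. The Col-0 groups did not overlap, and the 2 double-mutant groups did. Its response was -0.90 ± 0.13 (adjusted p = 1.76e-05) in Col-0 and -0.029 ± 0.12 (adjusted p = 0.853) in eil3 eil1-labelled shoots, and the difference of the responses was 0.87 ± 0.18 (adjusted p = 0.000659). For CYCA2;3 that difference was -0.23 ± 0.18 (adjusted p = 0.355). Over the 4 genotypes 5 A-type cyclins fell, by 0.33 to 0.83, and the responses of CYCA2;1 (-0.15) and CYCA2;2 (-0.20) were not called. In that average 30.2% of all loci were called lower.

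The B-type cyclins, regulators of entry into and exit from mitosis, fell in every genotype: 7 of 8 in Col-0, 5 in eil1-labelled, 6 in eil3-labelled and 7 in eil3 eil1-labelled shoots, with medians of -0.69, -0.62, -0.57 and -0.83. In the same order 17.9%, 12.9%, 16.6% and 28.3% of all loci were called lower. Averaged over the genotypes all 8 fell, from -0.31 for CYCB3;1 to -0.95 for CYCB2;3, where 30.2% of all loci were called lower. CYCB2;3 (AT1G20610) stood at 5.95, 7.88 and 7.97 CPM at +S and 3.68, 3.31 and 3.998 at -S in Col-0 shoots, against 6.99, 8.55 and 8.88 at +S and 4.14, 3.89 and 3.78 at -S in eil3 eil1-labelled shoots. In both lines every -S library was lower than every +S library. The response was -0.99 ± 0.18 (adjusted p = 0.000259) in Col-0 and -1.05 ± 0.18 (adjusted p = 3.57e-05) in the double mutant, a difference of -0.061 ± 0.25 (adjusted p = 0.878). CYCB2;2 (AT4G35620), its close relative, stood at 4.52, 3.91 and 4.93 CPM at +S and 3.09, 2.70 and 3.29 at -S in Col-0 shoots, against 5.96, 6.07 and 6.01 at +S and 2.82, 2.66 and 2.38 at -S in eil3 eil1-labelled shoots. Here the response of -0.55 ± 0.18 (adjusted p = 0.0186) in Col-0 became -1.20 ± 0.17 (adjusted p = 5.20e-06) in the double mutant, and the difference of -0.65 ± 0.25 (adjusted p = 0.0454) was the sole B-type call. That call was lost in 10 of the 12 fits with 1 library left out (adjusted p 0.0408 to 0.104, the highest without eil3 eil1 -S replicate 3). CYCB2;1 was the scarcest of the B2 group, at 0.645 to 2.15 CPM in Col-0 shoots, and its averaged response was -0.86 ± 0.15 (adjusted p = 4.20e-05).

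KNOLLE (AT1G08560), the syntaxin that fuses vesicles into the cell plate, was the member with the smallest p in the averaged response, -0.84 ± 0.063 (adjusted p = 3.19e-10). It stood at 25.4, 21.7 and 23.5 CPM at +S and 12.4, 13.1 and 12.3 at -S in Col-0 shoots, against 28.5, 23.7 and 28.8 at +S and 14.8, 14.2 and 12.8 at -S in eil3 eil1-labelled shoots. In eil1-labelled shoots the values were 19.1, 25.9 and 24.5 CPM at +S and 15.1, 14.3 and 12.1 at -S. In eil3-labelled shoots they were 21.4, 28.3 and 30.4 at +S and 14.7, 16.4 and 15.9 at -S. In each of the 4 genotypes the highest -S library lay below the lowest +S library. The response was -0.90 in Col-0, -0.75 in eil1-labelled, -0.77 in eil3-labelled and -0.96 in eil3 eil1-labelled shoots, and the double mutant differed from Col-0 by -0.057 ± 0.18 (adjusted p = 0.834). The KNOLLE gene overlaps a gene on the other strand over 464 bases, and whether counting used strand is not given in the sources used here.

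The D-type cyclins differed among themselves. Of 8 tested, 3 fell in Col-0 shoots, 2 in eil1-labelled, 1 in eil3-labelled and 4 in eil3 eil1-labelled shoots, and 1 rose in each of the last 2. Of all loci, 17.9%, 12.9%, 16.6% and 28.3% were called lower in that order. In the last 2 lines 18.1% and 32.5% were called higher, so the single rises were below the share of all loci. The single fall in eil3-labelled shoots was below it as well. CYCD3;2 (AT5G67260), a leaf cyclin with the highest per-length level of all members in Col-0 +S shoots at 86.8 ± 7.37 TPM (SD, n = 3), stood at 93.2, 108 and 88.2 CPM at +S and 55.7, 69.7 and 59.3 at -S in Col-0 shoots, against 79.96, 89.9 and 94.1 at +S and 63.7, 58.5 and 68.7 at -S in eil3 eil1-labelled shoots. It fell in all 4 genotypes, by 0.65 in Col-0, 0.72 in eil1-labelled, 0.48 in eil3-labelled and 0.47 in eil3 eil1-labelled shoots. No -S library reached a +S library of its genotype.

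CYCD2;1 and CYCD1;1 (AT1G70210), which like other D-type cyclins work with the A-type kinase, moved in opposite directions in the double mutant. CYCD2;1 (AT2G22490) stood at 15.5, 16.02 and 17.2 CPM at +S and 16.6, 15.9 and 16.3 at -S in Col-0 shoots, against 14.8, 15.5 and 15.1 at +S and 36.7, 31.6 and 35.4 at -S in eil3 eil1-labelled shoots. The eil3 eil1-labelled -S libraries exceeded all 21 other shoot libraries, of which the highest reached 20.7 CPM. In eil3-labelled shoots the values were 16.5, 14.4 and 12.4 at +S and 17.5, 20.6 and 20.7 at -S, without overlap. Its response was 0.002 ± 0.092 (adjusted p = 0.99) in Col-0, 0.43 ± 0.092 (adjusted p = 0.00107) in eil3-labelled and 1.19 ± 0.091 (adjusted p = 9.50e-10) in eil3 eil1-labelled shoots, and it was the 1 member that rose in the average over genotypes (0.43 ± 0.046). The double mutant differed from Col-0 in response by 1.19 ± 0.13 (adjusted p = 6.26e-07). CYCD1;1 stood at 19.7, 26.3 and 24.7 CPM at +S and 20.6, 19.7 and 18.02 at -S in Col-0 shoots, against 29.6, 30.7 and 34.6 at +S and 11.7, 11.5 and 10.4 at -S in eil3 eil1-labelled shoots. The eil3 eil1-labelled -S libraries were below all 21 others, of which the lowest was at 18.0 CPM. Its response was -0.27 ± 0.12 (adjusted p = 0.0825) in Col-0 and -1.50 ± 0.12 (adjusted p = 2.26e-09) in the double mutant, which differed by -1.22 ± 0.17 (adjusted p = 1.26e-05). At +S the double mutant had more of this cyclin than Col-0, by 0.43 ± 0.12 (adjusted p = 0.032), and at -S less, by -0.80 ± 0.12 (adjusted p = 1.50e-05).

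The cyclin-dependent kinases fell in shoots of Col-0 (4 of 5), eil1-labelled (5) and eil3-labelled plants (3), while 1 fell and 1 rose in the double mutant. Among all loci 17.9%, 12.9% and 16.6% fell in the first 3 of these lines. In the double mutant 28.3% of all loci fell and 32.5% rose, so both kinase counts there were below the share of all loci. CDKA;1 (AT3G48750), the kinase used throughout the cycle, stood at 55.9, 51.7 and 55.4 CPM at +S and 41.7, 43.3 and 42.1 at -S in Col-0 shoots, against 44.5, 49.2 and 49.6 at +S and 55.7, 51.6 and 53.9 at -S in eil3 eil1-labelled shoots. In Col-0 the -S libraries lay below the +S libraries, and in the double mutant they lay above, in both cases without overlap. The response was -0.36 ± 0.067 (adjusted p = 0.000307) in Col-0 and 0.17 ± 0.067 (adjusted p = 0.0328) in the double mutant, and the difference was 0.53 ± 0.095 (adjusted p = 0.000184). The B-type kinases are found in plants and act around mitosis. CDKB1;1 (AT3G54180) stood at 5.27, 5.56 and 4.77 CPM at +S and 3.65, 3.71 and 3.03 at -S in Col-0 shoots, against 5.63, 5.26 and 5.88 at +S and 5.57, 5.68 and 4.99 at -S in eil3 eil1-labelled shoots. Its response was -0.59 ± 0.14 (adjusted p = 0.00226) in Col-0 and -0.046 ± 0.13 (adjusted p = 0.784) in the double mutant, with a difference of 0.54 ± 0.19 (adjusted p = 0.0315) that was not called in 6 of the 12 fits with 1 library left out (adjusted p 0.0288 to 0.0876, the highest without Col-0 -S replicate 3). CDKB2;2 (AT1G20930), whose transcript is known to peak around mitosis, stood at 8.84, 8.93 and 9.73 CPM at +S and 5.21, 5.37 and 5.32 at -S in Col-0 shoots, against 9.87, 9.36 and 11.5 at +S and 7.24, 6.67 and 6.79 at -S in eil3 eil1-labelled shoots. It fell in all 4 genotypes, and its difference between the double mutant and Col-0, 0.22 ± 0.18 (adjusted p = 0.367), was not called. CDKB2;1 (AT1G76540) gave -0.41 ± 0.11 (adjusted p = 0.0059) in Col-0 and -0.22 ± 0.11 (adjusted p = 0.0762) in the double mutant.

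**Figure D2:**
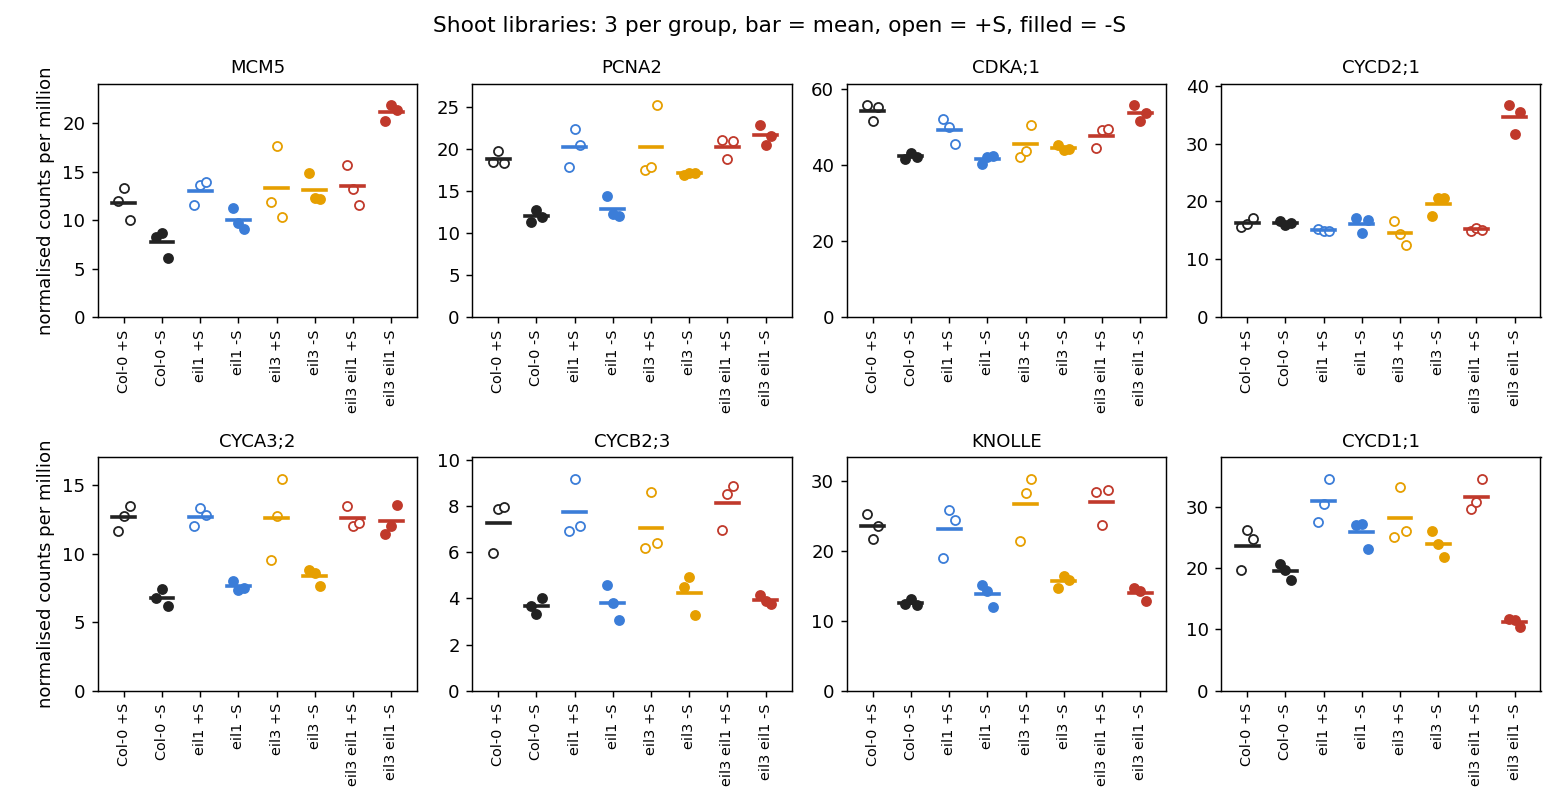
TMM-scaled CPM of 8 members in each of the 24 shoot libraries, by genotype label and sulfate level, with 1 point per library. MCM5, PCNA2 and CDKA;1 are lower at -S in Col-0 and at or above the +S level in eil3 eil1-labelled shoots, KNOLLE and CYCB2;3 are lower at -S in each genotype, and CYCD2;1 and CYCD1;1 move apart in the double mutant.

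Most helicase subunits fell at low sulfate in Col-0 shoots, and in the double mutant some rose and 0 fell. In Col-0 shoots 5 of 6 fell at low sulfate, with a median of -0.54, where 17.9% of all loci were called lower. In eil1-labelled shoots 2 fell and in eil3-labelled shoots 1 fell, with medians of -0.39 and -0.11. There 12.9% and 16.6% of all loci were called lower, the second close to the share of the helicase subunits. In eil3 eil1-labelled shoots 3 of 6 rose and 0 fell, with a median of 0.25, where 32.5% of all loci were called higher and 28.3% lower. MCM5 (AT2G07690) stood at 11.9, 13.3 and 10.05 CPM at +S and 8.30, 8.71 and 6.09 at -S in Col-0 shoots, against 15.7, 13.3 and 11.5 at +S and 20.22, 21.9 and 21.3 at -S in eil3 eil1-labelled shoots. Low sulfate put the Col-0 libraries below and the double-mutant libraries above their +S groups, without overlap in either. The response was -0.61 ± 0.17 (adjusted p = 0.00883) in Col-0 and 0.65 ± 0.17 (adjusted p = 0.00198) in the double mutant, and the difference of 1.26 ± 0.24 (adjusted p = 0.000327) was the largest positive one among the members.

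MCM2 (AT1G44900) stood at 12.1, 10.7 and 12.6 CPM at +S and 9.05, 9.79 and 8.25 at -S in Col-0 shoots, against 19.0, 16.3 and 15.8 at +S and 22.5, 23.5 and 23.7 at -S in eil3 eil1-labelled shoots. The response was -0.38 ± 0.12 (adjusted p = 0.0184) in Col-0 and 0.44 ± 0.12 (adjusted p = 0.00243) in the double mutant, with a difference of 0.83 ± 0.17 (adjusted p = 0.000627). MCM4 (AT2G16440) stood at 10.7, 10.97 and 11.9 CPM at +S and 8.21, 8.44 and 7.03 at -S in Col-0 shoots, against 14.5, 13.4 and 12.5 at +S and 15.1, 18.4 and 18.2 at -S in eil3 eil1-labelled shoots. For MCM2, MCM4 and MCM5 the 3 eil3 eil1-labelled -S libraries were above all 21 other shoot libraries. How many of all loci stood apart in this way, here or as for CYCD2;1 and CYCD1;1, was not counted. Of all loci 27.4% were called higher and 26.1% lower in these shoots than in Col-0 at -S. The responses of MCM4 were -0.50 ± 0.14 (adjusted p = 0.00946) and 0.36 ± 0.14 (adjusted p = 0.0298), and their difference was 0.86 ± 0.20 (adjusted p = 0.00188). The difference was also called for MCM6 (AT5G44635), at 0.72 ± 0.26 (adjusted p = 0.0308), and for MCM7 (AT4G02060), at 0.50 ± 0.18 (adjusted p = 0.0324). MCM6 stood at 7.70, 8.04 and 7.01 CPM at +S and 5.15, 5.50 and 4.55 at -S in Col-0 shoots, against 10.5, 10.2 and 8.10 at +S and 10.6, 11.4 and 9.69 at -S in eil3 eil1-labelled shoots. MCM7 stood at 14.1, 15.1 and 15.7 CPM at +S and 9.80, 11.2 and 7.45 at -S in Col-0 shoots, against 17.7, 16.2 and 16.2 at +S and 15.3, 15.96 and 13.5 at -S in eil3 eil1-labelled shoots. Both subunits fell in Col-0. In the double mutant the sulfate groups of MCM6 overlapped, and those of MCM7 were apart, lower at -S, without a call. Leaving out 1 library ended the MCM6 call in 6 of 12 fits (adjusted p 0.0319 to 0.0808, the highest without eil3 eil1 +S replicate 3) and the MCM7 call in 7 of 12 (0.00977 to 0.101, the highest without Col-0 -S replicate 3). MCM3 (AT5G46280), whose response was -0.24 ± 0.14 (adjusted p = 0.2) in Col-0 and 0.15 ± 0.14 (adjusted p = 0.371) in the double mutant, had a difference of 0.39 ± 0.20 (adjusted p = 0.132).

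The sliding clamps PCNA1 and PCNA2 fell in Col-0 and eil1-labelled shoots, where 17.9% and 12.9% of all loci were called lower. In eil3-labelled shoots PCNA1 fell, at -0.46 ± 0.14 (adjusted p = 0.0179). There PCNA2 was not called, at -0.24 ± 0.11 (adjusted p = 0.116), and 16.6% of all loci were called lower. In the double mutant neither passed the test, where 32.5% of all loci were called higher and 28.3% lower. PCNA2 (AT2G29570) stood at 18.5, 19.7 and 18.3 CPM at +S and 11.3, 12.8 and 11.9 at -S in Col-0 shoots, against 21.04, 18.8 and 20.99 at +S and 22.8, 20.4 and 21.6 at -S in eil3 eil1-labelled shoots. PCNA1 (AT1G07370) stood at 8.59, 8.71 and 7.21 CPM at +S and 5.51, 6.18 and 5.26 at -S in Col-0 shoots, against 9.76, 7.90 and 11.9 at +S and 10.9, 10.2 and 11.1 at -S in eil3 eil1-labelled shoots. In both genes the Col-0 groups were apart and the double-mutant groups overlapped. The responses of PCNA2 were -0.65 ± 0.12 (adjusted p = 0.000182) and 0.092 ± 0.11 (adjusted p = 0.494), with a difference of 0.74 ± 0.16 (adjusted p = 0.00111). The responses of PCNA1 were -0.53 ± 0.15 (adjusted p = 0.00771) and 0.12 ± 0.14 (adjusted p = 0.472), with a difference of 0.66 ± 0.20 (adjusted p = 0.0157).

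Across all members, the response of eil3 eil1-labelled shoots differed from that of Col-0 shoots for 13 of 37, with 11 higher and 2 lower, where 36.9% of loci were called, 20% higher and 16.9% lower. The share of members called in either direction was thus close to that of all loci. The 11 were 5 of 6 MCM subunits, both PCNA genes, 2 of 5 kinases, 1 of 7 A-type cyclins and 1 of 8 D-type cyclins tested. Of the 13 calls, 9 were kept in each of the 12 fits with 1 library left out, and the other 4 were those of CYCB2;2, CDKB1;1, MCM6 and MCM7. In eil1-labelled shoots 0 of 37 differed in response from Col-0 in edgeR (0.023% of loci called), with 1 at an unadjusted p below 0.05 and 0 in DESeq2. In eil3-labelled shoots 0 of 37 differed in edgeR (1.78% of loci called), with 8 at an unadjusted p below 0.05, all higher, and 1 in DESeq2. The count for eil3-labelled shoots became 1 without eil3 +S replicate 1, without eil3 +S replicate 2 or without eil3 -S replicate 1, and 2 without eil3 +S replicate 3.

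**Figure D3:**
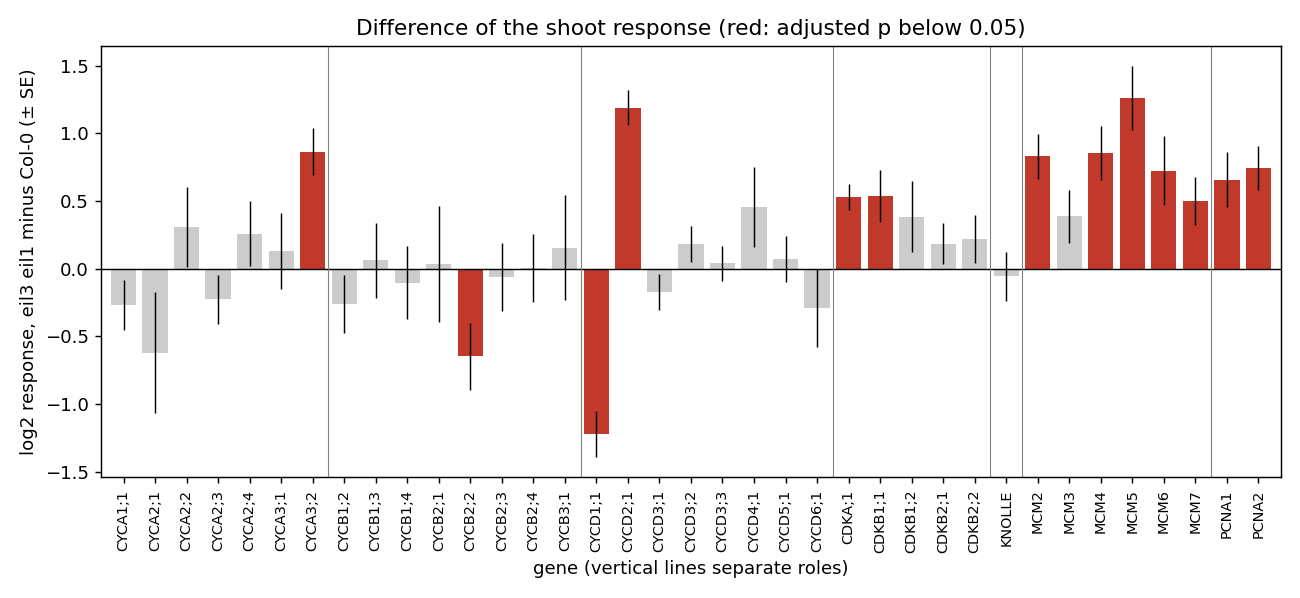
Difference of the low-sulfate response of eil3 eil1-labelled shoots from that of Col-0 shoots (log2, bars with approximate SE) for the 37 members tested, ordered by role. MCM5 (1.26) and CYCD2;1 (1.19) have the largest positive values, CYCD1;1 (-1.22) the largest negative one, and the B-type cyclins other than CYCB2;2 (-0.65) scatter around 0.

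Compared directly with Col-0, eil1-labelled shoots had 0 of 37 members called at +S (1.26% of loci called) and 0 at -S (0.53%), with 4 at an unadjusted p below 0.05 in each, and DESeq2 called 1 at +S and 0 at -S. In eil3-labelled shoots at +S 2 were called (7.13% of loci, 2.47% higher and 4.66% lower), MCM2 at 0.41 ± 0.12 (adjusted p = 0.0445) and CDKA;1 at -0.26 ± 0.067 (adjusted p = 0.024). Both calls were lost without Col-0 +S replicate 1 or 3 and without eil3 +S replicate 1 or 2, and without Col-0 +S replicate 2 the MCM2 call was lost (log2 0.23 to 0.46 for MCM2 and -0.24 to -0.21 for CDKA;1 in those fits). At -S 9 were higher and 0 lower (17.5% of loci called, 8.85% higher). They were MCM2 (0.75 ± 0.12), MCM4 (0.59 ± 0.14), MCM5 (0.76 ± 0.17), MCM6 (0.68 ± 0.18), PCNA2 (0.51 ± 0.12), CYCB1;2 (0.47 ± 0.16), CYCB1;3 (0.59 ± 0.20), CYCB1;4 (0.58 ± 0.19) and CYCD2;1 (0.27 ± 0.091). The count was 5 without Col-0 -S replicate 3 or without eil3 -S replicate 2, and 18 with total-count scaling, which moved the median of all loci by 0.13.

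In eil3 eil1-labelled shoots at +S 3 members were higher than in Col-0 (7.54% of loci called, 2.84% higher), namely MCM2 at 0.53 ± 0.12 (adjusted p = 0.00857), CYCD1;1 at 0.43 ± 0.12 (adjusted p = 0.032) and CYCB1;3 (AT3G11520), a B-type cyclin, at 0.65 ± 0.19 (adjusted p = 0.0439). The count was 1 without Col-0 +S replicate 1, Col-0 +S replicate 3 or eil3 eil1 +S replicate 3, and 0 without eil3 eil1 +S replicate 1. At -S 17 were higher and 1 was lower, where 53.6% of loci were called, 27.4% higher and 26.1% lower. All 6 MCM subunits were higher, from 0.66 for MCM7 to 1.46 for MCM5, and so were PCNA1 (0.93), PCNA2 (0.85) and all 5 kinases, from 0.28 for CDKB2;1 to 0.64 for CDKB1;1. Of the cyclins, CYCD2;1 (1.09), CYCA3;2 (0.86), CYCD4;1 (0.80) and CYCB1;3 (0.71) were higher and CYCD1;1 was lower. KNOLLE was not called at 0.14 ± 0.13 (adjusted p = 0.371). The B-type cyclins had 1 of 8 called and a median of 0.20.

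Summed per length, the 8 MCM and PCNA genes stood at 48.3, 47.02 and 45.5 TPM in Col-0 +S shoots and at 37.99, 39.4 and 33.4 TPM in Col-0 -S shoots. In eil3 eil1-labelled shoots the sums were 62.7, 52.9 and 61.2 TPM at +S and 77.2, 84.9 and 82.8 TPM at -S. With TMM scaling the median responses there were 0.25 for MCM and 0.11 for PCNA. In eil3-labelled shoots the mean sum was 55.1 TPM at +S and 59.1 TPM at -S. The TMM-scaled medians in eil3-labelled shoots were -0.11 for MCM and -0.35 for PCNA. TPM sums carry no TMM scaling, so their changes with sulfate can differ from the responses in size and direction. The 8 B-type cyclins summed to 25.5, 22.3 and 23.6 TPM in Col-0 at +S and 17.4, 15.2 and 16.7 TPM at -S. In the double mutant they summed to 32.3, 28.2 and 36.2 TPM at +S and 20.11, 22.7 and 20.3 TPM at -S. The ratio of the replication sum to the B-type cyclin sum was thus 3.84, 3.74 and 4.08 in eil3 eil1-labelled -S shoots, 1.69 to 2.60 in the other 21 shoot libraries and 1.22 to 1.45 in roots. Beside these changes the green tissue sum was between 29696 and 35278 CPM in Col-0 -S shoots and between 16153 and 17061 CPM in eil3 eil1-labelled -S shoots, with 8 of 8 markers lower in each. Its part in the results was not tested. The shoot meristem marker sum was 56.9 to 62.7 CPM in Col-0 +S, 42.7 to 54.5 in Col-0 -S and 49.5 to 58.9 CPM in eil3 eil1-labelled -S shoots, and its part was not tested either.

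**Figure D4:**
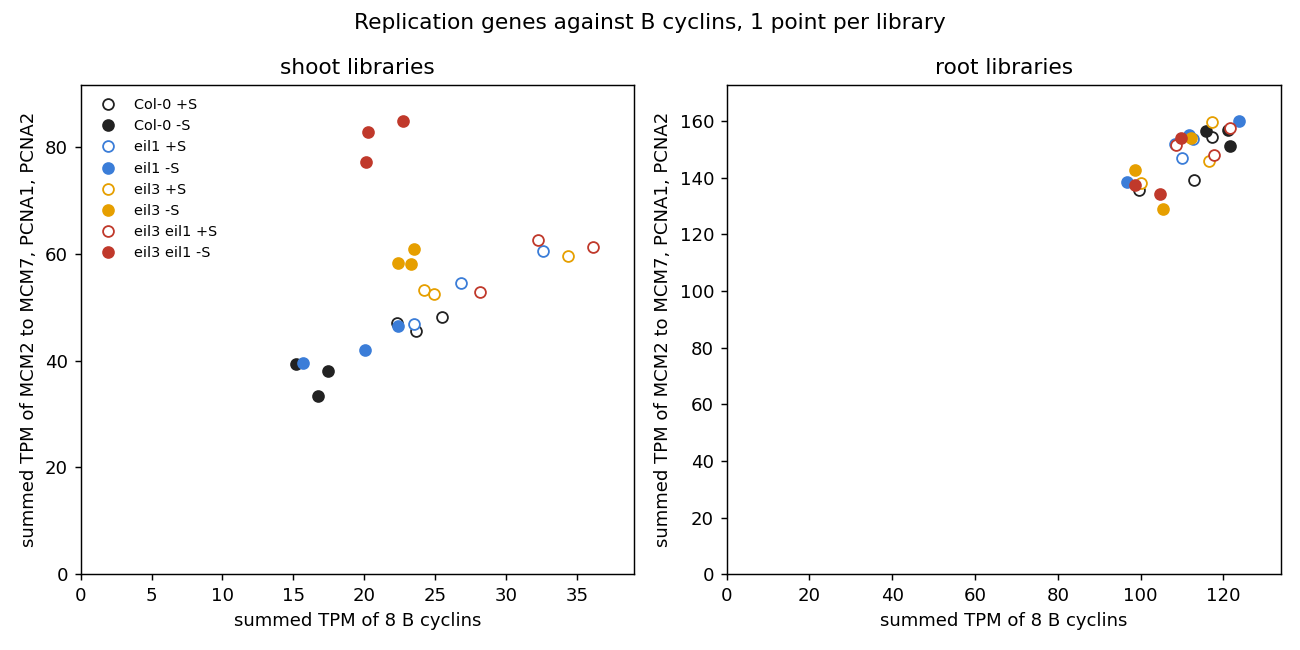
Summed TPM of MCM2 to MCM7 with PCNA1 and PCNA2 (vertical axis) against summed TPM of the 8 B-type cyclins (horizontal axis), with 1 point per library. TPM are shares within a library, without TMM scaling. The 3 eil3 eil1-labelled -S shoot libraries, at 77.2 to 84.9 TPM against 20.11 to 22.7 TPM, stand above the other shoot libraries, and the root libraries lie at higher levels of both.

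Other genes of the cycle were read from lists. Of all loci, 16.9% were called higher and 17.9% lower in the response of Col-0 shoots, and 32.5% higher and 28.3% lower in that of eil3 eil1-labelled shoots. Of 22 further replication genes, 2 rose and 5 fell in Col-0 shoots and 12 rose and 0 fell in eil3 eil1-labelled shoots, and 21 were higher in the double mutant than in Col-0 at -S, where 27.4% of loci were. FEN1, the flap endonuclease that processes Okazaki fragments, gave 0.24 ± 0.11 (adjusted p = 0.1) in Col-0 and 1.20 ± 0.11 (adjusted p = 1.05e-08) in the double mutant. CDC6A, which loads the helicase at origins, fell in Col-0 by 1.83 ± 0.28 and gave -0.14 ± 0.24 (adjusted p = 0.631) in the double mutant. Of 11 further mitosis and cytokinesis genes, 8 fell in Col-0 and 8 in the double mutant, AUR2, an Aurora kinase, by 0.65 and 0.84, while its relative AUR3 fell in Col-0 by 0.91 ± 0.17 and gave -0.31 ± 0.17 (adjusted p = 0.114) in the double mutant. Of 13 histone H3.1 and H4 genes, which package newly made DNA, 11 fell in Col-0 and 12 in the double mutant, HTR2 by 0.80 and 1.00. In the double mutant these histones thus fell while 3 helicase genes rose and 0 fell. Of 16 inhibitors of cyclin-dependent kinases, 5 rose and 0 fell in Col-0 and 6 rose and 0 fell in the double mutant, where the share higher was close to that of all loci. Among them KRP6 rose by 0.70 ± 0.075 and 1.22 ± 0.074, and SMR5, an inhibitor known to respond to oxidative and DNA damage, rose by 1.92 ± 0.45 and 4.79 ± 0.43. Of 13 genes of the kinase complexes and of the anaphase-promoting complex, 6 fell and 1 rose in Col-0 and 3 fell and 3 rose in the double mutant, with CDC20.1, an activator of that complex, at -0.80 and -1.01. Of 13 E2F, retinoblastoma-related and MYB3R regulators, 4 rose and 1 fell in Col-0 and 8 rose and 0 fell in the double mutant, and E2FC, which represses the cycle, rose by 0.62 and 0.76.

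In roots few of the same genes were called for sulfate. In each genotype 0 of 37 members were called in edgeR, where 9.03% of loci were called in Col-0, 1.92% in eil1-labelled, 1.06% in eil3-labelled and 3.89% in eil3 eil1-labelled roots. At an unadjusted p below 0.05 there were 1, 1, 3 and 4 members, all lower, and DESeq2 called 0, 0, 0 and 1. Averaged over the genotypes 2 fell and 0 rose (12.5% of loci called, 5.83% lower). CYCD3;2 stood between 46.6 and 58.4 CPM in the 12 +S libraries, with a median of 50.4, and between 40.1 and 47.2 CPM in the 12 -S libraries, with a median of 44.5. Its averaged response was -0.21 ± 0.039 (adjusted p = 0.000844), against -0.58 ± 0.047 in shoots. CYCA2;3 stood between 20.16 and 25.1 CPM at +S and between 18.3 and 22.9 CPM at -S, with medians of 22.7 and 20.3. Its averaged response was -0.16 ± 0.042 (adjusted p = 0.0117), against -0.83 ± 0.064 in shoots. The ranges of the +S and -S libraries overlapped for both cyclins.

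KNOLLE, the most responsive member of shoots by p, stood at 53.4, 52.6 and 59.1 CPM at +S and 50.6, 51.5 and 57.5 at -S in Col-0 roots, which overlapped, and its averaged response was -0.042 ± 0.046 (adjusted p = 0.642). MCM4 stood at 28.6, 31.6 and 28.4 CPM at +S and 25.3, 29.7 and 24.7 at -S in eil3 eil1-labelled roots, with a response of -0.15 ± 0.082 (adjusted p = 0.435). PCNA2 gave an averaged response of -0.069 ± 0.047 (adjusted p = 0.404), CDKB2;1 0.060 ± 0.036 (adjusted p = 0.326) and CYCB2;1 -0.17 ± 0.076 (adjusted p = 0.174). Over all members the averaged root responses ran from -0.21 to 0.097, with a median of -0.035 and a median SE of 0.047. The responses of the mutant-labelled roots differed from that of Col-0 roots for 0 members in edgeR (0.383% of loci called in eil1-labelled, 0.943% in eil3-labelled and 3.83% in eil3 eil1-labelled roots), with 0, 0 and 4 at an unadjusted p below 0.05 and 0, 0 and 1 in DESeq2. Without eil3 eil1 +S replicate 2, 1 member was called in the response of eil3 eil1-labelled roots and 1 in its difference from Col-0. Of the 6 further lists of cycle genes, 1 gene was called in the averaged root response, SMR2, an inhibitor of cyclin-dependent kinases, which fell by 0.19 (adjusted p = 0.00984).

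A pair of D-type cyclins differed between genotypes in roots. CYCD6;1 (AT4G03270), which acts in the formative divisions of the root ground tissue, stood at 6.64, 8.25 and 7.19 CPM at +S and 6.67, 8.39 and 8.49 at -S in Col-0 roots. It stood at 5.67, 5.52 and 4.80 and 3.63, 5.64 and 5.08 in eil1-labelled roots, at 4.46, 4.76 and 3.52 and 3.35, 3.13 and 4.41 in eil3-labelled roots, and at 5.08, 5.24 and 4.39 and 4.97, 5.01 and 5.06 in eil3 eil1-labelled roots. Every mutant-labelled library was below every Col-0 library. The difference from Col-0 was called in eil3-labelled roots at +S, -0.79 ± 0.16 (adjusted p = 0.0107), and at -S, -1.11 ± 0.16 (adjusted p = 9.53e-05), in eil1-labelled roots at -S, -0.71 ± 0.16 (adjusted p = 0.0155), and in eil3 eil1-labelled roots at -S, -0.65 ± 0.16 (adjusted p = 0.00776). At +S it was not called in eil1-labelled roots (-0.46 ± 0.16) or in eil3 eil1-labelled roots (-0.59 ± 0.16 (adjusted p = 0.0804)). The gene overlaps a gene on the other strand over 847 bases.

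CYCD1;1 stood at 32.05, 33.6 and 32.8 CPM in Col-0 -S roots, 27.2, 25.6 and 27.4 in eil3-labelled -S roots and 24.05, 24.7 and 24.4 in eil3 eil1-labelled -S roots, with no overlap with Col-0. It was lower at -S in eil3-labelled roots by -0.29 ± 0.072 (adjusted p = 0.0142) and in eil3 eil1-labelled roots by -0.43 ± 0.073 (adjusted p = 0.000302). The members called between genotypes in roots were this pair, which made 0 of 37 at +S and 1 at -S in eil1-labelled roots (1.24% and 2.51% of loci called, 1.18% lower in the second), 1 and 2 in eil3-labelled roots (2.19% and 6.65%, with 1.33% and 3.37% lower), and 0 and 2 in eil3 eil1-labelled roots (0.879% and 12.1%, with 6.01% lower in the second). Where a count was 0, 4 members in eil1-labelled and 1 in eil3 eil1-labelled +S roots had an unadjusted p below 0.05, and DESeq2 called 0 and 1. The CYCD6;1 call of eil1-labelled -S roots was lost without Col-0 -S replicate 2 or 3 or eil1 -S replicate 1 (log2 -0.66, -0.65 and -0.55), and that of eil3-labelled +S roots without Col-0 +S replicate 2 or eil3 +S replicate 3 (log2 -0.70 and -0.67). Without eil3 +S replicate 1 the count of eil3-labelled +S roots was 2, and without Col-0 +S replicate 1 that of eil1-labelled +S roots was 1. Without eil3 eil1 -S replicate 2 the count of eil3 eil1-labelled -S roots was 4, with CYCB1;2 and CYCB3;1 also called, at -0.38 and -0.43. The CYCD1;1 call of eil3-labelled -S roots was lost without Col-0 -S replicate 2 or 3 or eil3 -S replicate 2 (log2 -0.28, -0.29 and -0.26). A single root library, eil1 +S replicate 1, held 1597 CPM of green tissue markers against 356 to 792 CPM in the other 23, and 0 of 37 members were called in eil1-labelled +S roots with and without it.

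Per length, the highest members in Col-0 +S roots were KNOLLE at 83.5 ± 7.01 TPM, CYCD3;2 at 57.4 ± 6.95, CYCD3;1 at 56.1 ± 12.9, CDKA;1 at 40.6 ± 4.84 and PCNA2 at 39.9 ± 4.24 TPM (mean ± SD, n = 3). In Col-0 +S shoots the order was CYCD3;2 as given, KNOLLE at 29.1 ± 3.34, CDKA;1 at 24.3 ± 1.83, CYCD3;1 at 21.7 ± 0.727 and CYCD3;3 at 21.3 ± 2.58 TPM. In roots CYCD3;2 and CYCD3;1 did not differ beyond their spread, nor did CDKA;1 and PCNA2, and in shoots the same held for CYCD3;1 and CYCD3;3. The shoot ranges of KNOLLE and CDKA;1 overlapped, but within each library KNOLLE was higher. It stood at 32.6, 25.9 and 29.0 TPM, against 25.9, 22.3 and 24.7 TPM for CDKA;1. Of the 38 members, 28 were counted on a target nearer in length to the whole gene than to the spliced transcript, so the order by TPM also carries that choice of target. The CDKA;1 target has 3106 bases against 1499 spliced, and that of KNOLLE 1281 against 1386. In Col-0 +S shoots CDKA;1 had the higher estimated counts, 1953, 1626 and 1383 against 887, 682 and 588. The order of this pair in shoots therefore depends on the target. The lowest tested members were CYCA2;1 at 0.448 ± 0.00796 and CYCB3;1 at 0.597 ± 0.101 TPM in shoots. The CYCB3;1 target has 5005 bases against 2017 spliced, so its place depends on the target too. In a fit of the 12 Col-0 libraries, 32 of 37 members were higher in roots than in shoots at +S and 1 was lower, where 76.4% of 22301 loci were called, 40.5% higher and 35.9% lower. The median difference was 0.86 on the log2 scale for the members and 0.06 for all loci. All 8 B-type cyclins were higher, led by CYCB1;3 at 2.41 ± 0.14 (adjusted p = 2.41e-09), and so were all 6 MCM subunits, from 0.76 to 1.14. The member lower in roots was CYCD3;2, at -1.34 ± 0.10 (adjusted p = 6.12e-08). With total-count scaling, which moved the median of all loci to 0.61, 36 members were higher and 1 lower, and the differences of CYCA2;3, CYCD1;1 and CDKA;1 turned from -0.029, -0.068 and -0.0069, none of them called, to 0.52, 0.49 and 0.54.

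The low-sulfate response of Col-0 was less negative in roots than in shoots for 22 of 37 members and more negative for 0, where 13.2% of loci were called, 5.97% in the direction of the members. The median of this difference was 0.66 for the members and -0.01 for all loci. The calls covered 6 of 8 B-type cyclins, 4 of 7 A-type cyclins, 4 of 5 kinases, KNOLLE, 5 of 6 MCM subunits and both PCNA genes, and 0 of 8 D-type cyclins tested. The D-type median was 0.38, in the same direction, so 0 calls do not show that these cyclins lack the difference. CYCB1;2 (AT5G06150), the member with the largest difference, gave -0.76 ± 0.15 in Col-0 shoots and 0.15 ± 0.095 in Col-0 roots in the fits of each organ, with a difference of 0.91 ± 0.13 (adjusted p = 0.000828) in the joint fit. It stood at 11.7, 12.4 and 10.5 CPM at +S and 7.13, 6.82 and 6.48 at -S in shoots, and at 31.3, 29.5 and 35.4 and 36.3, 36.1 and 34.2 CPM in roots. The count was 18 with total-count scaling and 16 to 23 with 1 library left out.

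**Figure D5:**
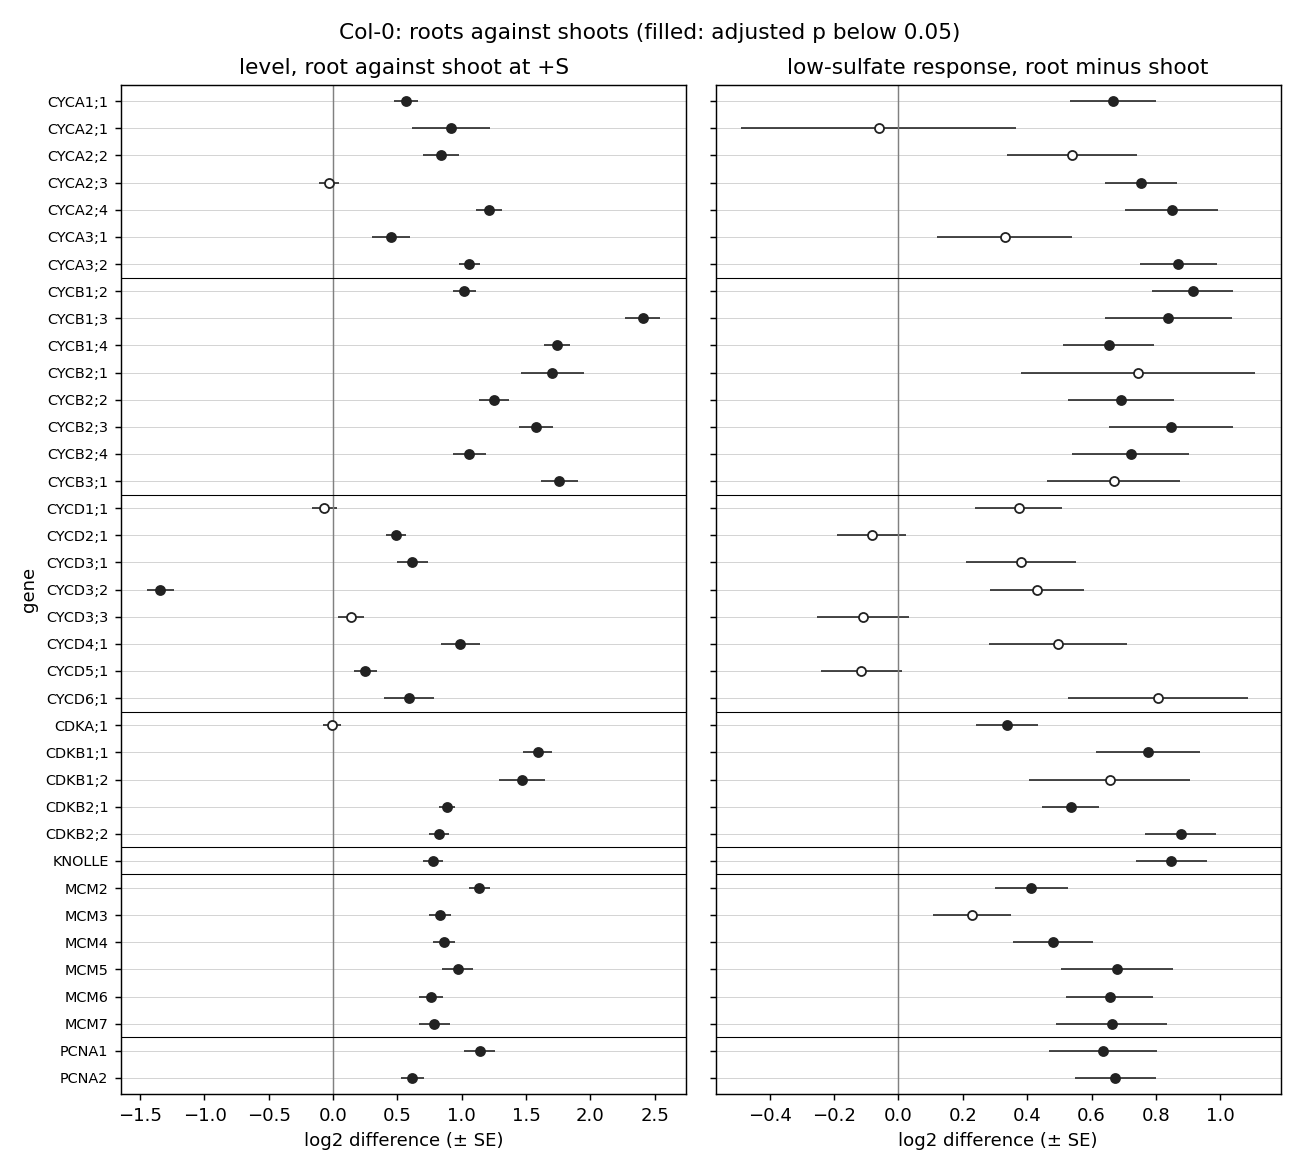
Col-0 members: the log2 level in roots against shoots at +S, and the difference of the low-sulfate response between roots and shoots, by role. Most members lie above 0 in both, with CYCD3;2 at -1.34 as the 1 member called lower in level, and no D-type cyclin has a called difference of response.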

How the data were processed

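The deposited table gives estimated counts and TPM for 48 libraries, made with Trimmomatic 0.36, FastQC and kallisto 0.43.1 on TAIR10, per the submitters' processing notes. Of the deposited estimated counts 7.80% were not whole, and all were rounded before testing. Levels between genes are TPM computed here from those deposited counts and the deposited effective lengths. The 48 deposited TPM columns were not used. A copy of the table with comma decimals was not used. Of 22497 loci with introns, 73.7% were counted on a target nearer in length to the whole gene than to its spliced transcript, as were 28 of the 38 members, among them all MCM genes. Per-length levels of such genes are then too low if only spliced RNA was present. The strand setting of counting is not given in the sources used here, and 11 members overlap a gene on the other strand and 2 a gene on the same strand.

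Tests used edgeR 4.0.16 in R 4.3.3 (TMM scaling, low-count filter, quasi-likelihood F test), 1 fit per organ of 24 libraries and 1 of the 12 Col-0 libraries for the organ comparison. They covered 21697, 21954 and 22301 loci, with biological coefficients of variation of 0.129, 0.101 and 0.118. Benjamini-Hochberg adjustment ran over every locus in a fit, and a call is an adjusted p below 0.05. SE is the absolute log2 difference divided by the square root of F, an approximation. TMM-scaled CPM are comparable within an organ only. Nothing beyond the word biological says how replicates were grown, so p-values measure the spread between these libraries. No 2 libraries were identical (0 pairs). Alternatives were RLE size factors, total-count scaling, no filter, DESeq2 1.42.0, a replicate block and leaving out each library. Figures used Python 3.11.15 and matplotlib 3.10.9.

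The members and lists were chosen with earlier results of these data known. Values per library are given for the member of each role with the smallest p in the averaged response of an organ and for members whose response differed between genotypes, and other lists are named by up to 3 genes with the smallest averaged p. CYCD6;1, CYCB1;2 and other members named for a call were chosen after their values were seen. On simulated counts with 67 loci changed 1.5-fold and 67 changed 2-fold, the fit recovered 53.7% and 82.1% in the Col-0 shoot response (21697 loci) and 73.1% and 82.1% in the Col-0 root response (21954 loci). In the difference between the eil3 eil1 and Col-0 shoot responses (21697 loci) it recovered 26.9% and 55.2%, and in that between Col-0 roots and shoots (22301 loci) 14.9% and 67.2%. Few loci were changed in each simulation. In the data 34.9% of loci were called in the Col-0 shoot response and 36.9% in its difference from eil3 eil1. The adjustment over all loci depends on that share, so the recovered percentages do not give the power of the fits on the data.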

Additional observations from a re-analysis of the deposited data

Results flagged for a closer look

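The low-sulfate response of shoots differed between the eil3 eil1-labelled line and Col-0 for 13 members, by the interaction test of edgeR over all loci (log2 difference with adjusted p). It was higher in the double mutant for MCM5 (1.26, p 0.000327), MCM4 (0.86, p 0.00188), MCM2 (0.83, p 0.000627), MCM6 (0.72, p 0.0308), MCM7 (0.50, p 0.0324), PCNA2 (0.74, p 0.00111), PCNA1 (0.66, p 0.0157), CYCD2;1 (1.19, p 6.26e-07), CYCA3;2 (0.87, p 0.000659), CDKB1;1 (0.54, p 0.0315) and CDKA;1 (0.53, p 0.000184). It was lower for CYCD1;1 (-1.22, p 1.26e-05) and CYCB2;2 (-0.65, p 0.0454). Among all loci tested 36.9% passed the same test, which is close to the share of the members.

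The low-sulfate response of Col-0 differed between roots and shoots for 22 members, all less negative in roots, where 13.2% of loci passed. The log2 differences were 0.91 for CYCB1;2, 0.85 for CYCB2;3, 0.84 for CYCB1;3, 0.72 for CYCB2;4, 0.69 for CYCB2;2 and 0.65 for CYCB1;4 among the mitotic cyclins, and 0.85 for KNOLLE. Among the A-type cyclins they were 0.87 for CYCA3;2, 0.85 for CYCA2;4, 0.75 for CYCA2;3 and 0.67 for CYCA1;1. Among the kinases they were 0.88 for CDKB2;2, 0.78 for CDKB1;1, 0.54 for CDKB2;1 and 0.34 for CDKA;1. Among the replication genes they were 0.68 for MCM5, 0.66 for MCM7, 0.66 for MCM6, 0.48 for MCM4, 0.41 for MCM2, 0.67 for PCNA2 and 0.64 for PCNA1. Adjusted p ranged from 0.000519 for CDKB2;2 to 0.0371 for CDKA;1.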

How the results depend on the processing

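Counts are of members called among the 37 tested. RLE size factors changed no count by more than 1.5 times. Total-count scaling gave 10 in eil3-labelled shoots (3 higher, 7 lower, against 1 and 17), 1 for eil3 against Col-0 in +S shoots, 18 in -S shoots, 5 for eil3 eil1 in +S shoots and 1 for the eil3 shoot interaction. It moved the median of all loci by 0.25 in eil3-labelled, 0.19 in eil3 eil1-labelled and 0.12 in Col-0 shoots, and turned CDKA;1 to 0.20 in eil3-labelled shoots and 0.032 in the average, CYCD3;3 to 0.14 in the average, and the root against shoot values of CYCA2;3, CYCD1;1 and CDKA;1 to 0.52, 0.49 and 0.54. Each of the 6 was uncalled or near 0 with TMM except CDKA;1 in the average (-0.12). With no filter the count for eil3 in +S shoots was 1. DESeq2 gave 1 each for eil1 in +S shoots, the eil3 shoot interaction, the eil3 eil1 root response, eil3 eil1 in +S roots and the eil3 eil1 root interaction, and 2 for eil3 in +S roots. The cause of these moves was not tested.

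With 1 library left out the counts ran from 21 to 26 in Col-0 shoots, 14 to 23 in eil1-labelled, 12 to 19 in eil3-labelled and 18 to 21 in eil3 eil1-labelled shoots, and from 9 to 13 for the eil3 eil1 shoot interaction. Against Col-0 they were 0 to 2 for eil3 at +S, 5 to 7 for eil3 at -S and 0 to 3 for eil3 eil1 at +S in shoots, and 0 to 2 for the eil3 shoot interaction. In roots they were 0 to 1 for the eil3 eil1 response and its interaction, 0 to 1 for eil1 at +S and at -S, 0 to 2 for eil3 at +S, 1 to 2 for eil3 at -S and 2 to 4 for eil3 eil1 at -S. With a replicate block in roots the count for eil3 eil1 at -S was 4 (CYCB1;2 and CYCB3;1 added), and no other root count moved by more than 1.5 times. Deviations of same-numbered root libraries from their group means correlated above 0.1 in 20 of 84 pairs (from -0.18 to 0.20, median 0.030), so the number was not used as a pairing. Of the 24 root libraries 17 correlated best with their own number among the 3 numbers. That is a hint of a shared replicate effect from the data and not from the design. No paired analysis was possible because shoot replicate numbers in the table cannot be tied to sample titles, which holds for shoots and for Col-0 over both organs. Low levels limit CYCD7;1 (at most 0.170 CPM), CYCA2;1 (0.355 to 1.34 CPM) and CYCB2;1 (0.645 to 2.63 CPM) in shoots.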
